A study of Mus musculus with 8 samples.

Results

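A pair of loci of the splicing machinery gave the small RNA fragments described here: an intron stretch of Snrpb and the snRNA gene Rnu12. The members are the piRNA names listed inside either locus in mouse sperm, 28 of 20210 names in all: 15 names in Snrpb and 13 in Rnu12. The loci were selected on the RPM values of these same MC-LR and control libraries, which differed at both loci, in opposite directions among the names listed at Rnu12. The MC-LR values are therefore given as a description, without p-values, and calls made from them support nothing.

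Small RNA was sequenced from sperm of Balb/c mice at postnatal month 8, in 4 groups of 2 libraries lettered A and B. The groups were a control, a group labelled as exposed to MC-LR (microcystin-LR, made by cyanobacteria and known to block the phosphatases PP1 and PP2A), a negative control for the knockdown, and an shRNA against Hsp90aa1, which encodes the chaperone HSP90 alpha. The series' design text speaks of 2 doses of MC-LR, but the labels give no dose, no route and no way of shRNA delivery. They also do not say whether a group's libraries came from separate animals, so every p-value here measures only the spread between these libraries. Levels are RPM (a library's reads for a name relative to its total), deposited in 2 tables that were scaled apart: control with MC-LR (13450 names) and negative control with Hsp90aa1 shRNA (17375 names, of which 10615 are in both tables).

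The spliceosome removes introns with small nuclear RNAs (snRNAs) that are wrapped in a ring of Sm proteins. Snrpb encodes SmB/B′, a protein of that ring, which binds the Sm site, a short run of uridines in each snRNA of this kind. Rnu12 encodes the U12 snRNA of the minor spliceosome, which pairs with the branch site of a rare class of introns. Introns of genes for such abundant proteins often carry small nucleolar RNAs (snoRNAs), and those of the box C/D class have a box C near the 5′ end, a box D near the 3′ end, and guide the methylation of ribosomal and other RNAs. The human SNRPB gene is known to hold one in an intron. piRNAs, under whose names these fragments are listed, are the partners of PIWI proteins and act against transposons in germ cells.

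The Snrpb gene (ENSMUSG00000027404.15) lies on the minus strand at chr2:130171414-130179403 of mm10. All 15 Snrpb names fell within 71 nt of it, chr2:130172908-130172978. The coding transcript Snrpb-201 has an intron there of 307 nt between its exons 5 and 6. The stretch began 57 nt after exon 5 (chr2:130173036-130173174) and ended 179 nt before exon 6 (chr2:130172603-130172728). It is exonic only in the retained-intron transcript Snrpb-202, in exon 6. No snoRNA is annotated on the stretch in GENCODE M21. Its sequence on the gene's strand, from GENCODE M21, is shown because every Snrpb name is cut from it, with the first box C (ATGATGA) and the last box D (CTGA) in capitals.

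Snrpb stretch: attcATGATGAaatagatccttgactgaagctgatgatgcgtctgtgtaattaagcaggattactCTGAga

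Box C covered bases 5 to 11 of the stretch and the last box D bases 66 to 69. CTGA occurred 3 times and ATGATGA once, and neither occurred on the other strand. The same stretch with 10 nt on each side (chr2:130172898-130172988) shows an inverted repeat of 7 nt, in capitals, that brackets it.

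Snrpb stretch with flanks: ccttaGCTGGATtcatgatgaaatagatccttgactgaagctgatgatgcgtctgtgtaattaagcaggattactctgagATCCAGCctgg

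Such letters are a description and not a known site. Among 476871 adjoining windows of the same length in retained-intron transcripts, ATGATGA occurred anywhere in 0.732% and CTGA anywhere in 33.2%. Both letters no farther from the ends than in the stretch itself, which set that limit, occurred in 3 windows. Of 98 annotated Snord transcripts, 42.9% had ATGATGA in the first 20 nt and CTGA in the last 20 nt.

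Rnu12 (ENSMUSG00000065176.1) lies on the plus strand at chr15:83149644-83149794. It is a gene of a single exon of 151 nt. Its sequence is printed with the Sm site, ATTTTTG at bases 75 to 81, in capitals, because the names of this gene separate into some at that site and some at the 3′ end.

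Rnu12: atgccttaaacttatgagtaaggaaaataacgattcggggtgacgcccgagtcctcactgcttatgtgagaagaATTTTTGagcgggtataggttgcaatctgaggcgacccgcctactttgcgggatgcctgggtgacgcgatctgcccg

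ATTTTTG occurred once, on this strand only. It occurred in 3.33% of 1383 annotated snRNA transcripts and in 0.385% of their windows of 18 nt. Of the 13 Rnu12 names, 3 held the Sm site and 10 lay at the 3′ end, so no name covered the first part of the gene. The names on which the results turn are given with Sm site, box C or box D letters in capitals.

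piR-mmu-48885749: gaagaATTTTTGagcggg

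piR-mmu-48712357: agaagaATTTTTGagcggg

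piR-mmu-50595701: aagaATTTTTGagcgggt

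piR-mmu-53265993: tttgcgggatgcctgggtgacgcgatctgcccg

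piR-mmu-3734954: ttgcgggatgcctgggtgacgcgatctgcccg

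piR-mmu-29239003: attcATGATGAaatagatccttgaCTGAag

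piR-mmu-48869588: ttgaCTGAagCTGAtgatgcg

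piR-mmu-20833075: gtgtaattaagcaggattactCTGAga

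piR-mmu-4734840: gtaattaagcaggattactCTGAga

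All 28 names lay on the strand of their gene. The 3 Sm-site names started 1 nt apart, at chr15:83149712, 83149713 and 83149714, and ended at 83149730 or 83149731. Each of these 3 was also listed at chr5:7177769-7177788 on the minus strand with the same values in every library. That second locus is Gm24525, a snRNA gene of 151 nt (chr5:7177706-7177856) inside Zfp804b. Gm24525 matched Rnu12 at 145 of 151 bases (96.0%), with the substitutions C11A, G16A, C31T, G113A, G137A and C150A, counted from base 1 of Rnu12 with its base first. None of the 6 lay in the Sm-site stretch, so Sm-site reads cannot be assigned to one of the genes. In the 3′-end stretch 2 did, and the 10 names there were each listed at Rnu12 alone.

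The 10 Rnu12 3′-end names, of 28 to 34 nt, started between chr15:83149762 and 83149766 and ended between 83149792 and 83149795. piR-mmu-49992844 of this set ran 1 nt past the annotated end of the gene. In Snrpb, 9 names ended at the same base, chr2:130172908, and began at 9 different bases between 130172930 and 130172939. They form the 3′ part, with lengths of 23 to 32 nt, and carried the last box D. Another 2 shared the 3′ end 130172938 (the middle, 21 and 24 nt). The remaining 4 shared the 5′ end 130172978 (the 5′ part, 28 to 31 nt) and carried box C. The names within each of these fragments overlap and may share reads, so they are not independent measurements. A first base T, which PIWI proteins prefer, was present in 5 of 15 Snrpb and 6 of 12 Rnu12 names with a sequence. An A at base 10 was present in 4 of 15 and 0 of 12.

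**Figure D1:**
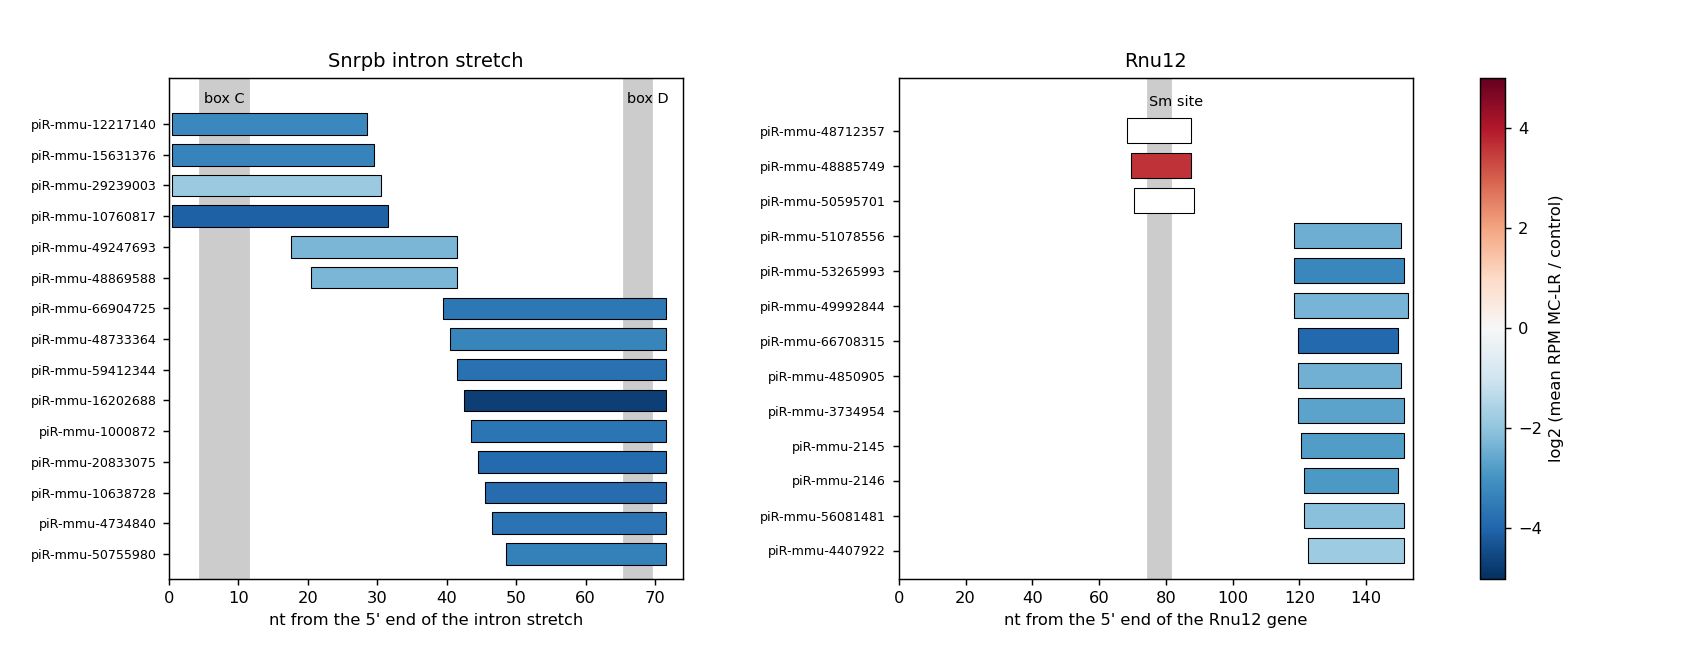
Positions of the 28 names along the 71 nt Snrpb stretch (left) and along Rnu12 (right), in nt from the 5′ end, coloured by the log2 ratio of mean RPM in MC-LR over control libraries (white: not listed in the MC-LR table). Snrpb names fall into 3 fragments with shared ends, all lower with MC-LR, and in Rnu12 the Sm-site name piR-mmu-48885749 is the single one coloured as higher.

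No listed locus crossed the edge of either window. The nearest one outside lay 96.0 kb from Snrpb, on Snord110 in Nop56, and 205 kb from Rnu12 in the MC-LR table. Library totals ran from 4960467 to 14634370 reads, at which 3 reads are worth 0.205 to 0.605 RPM. Reads carry no molecular identifiers, so such limits cover counting error only. Every listed name had at least 1 read in all 4 libraries of its table, so a name that is not in a table may still have been present in some of its libraries. The listed names took 38.1% and 35.3% of reads in control A and B, 12.5% and 11.7% with MC-LR, 27.8% and 32.5% in the negative control and 4.98% and 3.18% with the Hsp90aa1 shRNA. In bulk sperm RNA, fewer cells and less RNA per cell cannot be told apart. Of the microRNA genes that mark sperm and late germ cells, 4 could be looked up, and none had a listed name beside the control and MC-LR libraries. In the other table names lay on 3 of them (Mir34b, Mir34c and Mir449a), at summed levels of 1327 and 2641 RPM in the negative control and 634 and 163 RPM with the Hsp90aa1 shRNA. The epithelial Mir200 family, 5 genes of 5, summed to 6388 and 4690 RPM in the control and 2408 and 2490 RPM with MC-LR, and to 2591 and 3801 RPM in the negative control and 399 and 110 RPM with the Hsp90aa1 shRNA. The red cell microRNA Mir451a stood at 1.91 and 3.02 RPM in the control against 0.505 and 1.07 RPM with MC-LR. With Mir144 it summed to 272 and 405 RPM in the negative control and 43.7 and 56.2 RPM with the Hsp90aa1 shRNA. The white cell genes Mir142 and Mir223 summed to 20.8 and 18.9 RPM in the control against 8.08 and 12.3 RPM with MC-LR, and Mir142 to 102 and 204 RPM in the negative control against 33.0 and 13.3 RPM with the Hsp90aa1 shRNA. A muscle gene that could be looked up had no listed name. All these sums were lower with MC-LR and with the Hsp90aa1 shRNA, and their part in the results was not tested.

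In the MC-LR table, Rnu12 had 11 names, of which 10 were lower with MC-LR and 1, the Sm-site name, was higher. piR-mmu-48885749, the 18 nt Sm-site name (chr15:83149713-83149730), stood at 14.9 and 8.27 RPM in the control libraries and at 155 and 130 RPM with MC-LR. Both MC-LR libraries lay far above both controls, on 920 and 852 reads against 218 and 41. The mean was 11.6 ± 4.69 RPM in the control and 142 ± 17.7 RPM with MC-LR (SD, n = 2 each), 12.3-fold higher. Names were tested where either group averaged 1 RPM or more. Among these 13271 names its log2 change ranked 2 from the highest. The same values chose the locus, so the rank is a description and no support.

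The names at the 3′ end of Rnu12, which unlike the Sm-site name are listed at that gene alone, stood lower with MC-LR. piR-mmu-53265993, the 33 nt name that ends with the gene, stood at 52.0 and 128 RPM in the control and 7.74 and 11.1 RPM with MC-LR, 9.52-fold lower. piR-mmu-3734954, which starts 1 nt later, stood at 23.8 and 53.6 RPM against 4.71 and 7.47 RPM, 6.35-fold lower. In both, control B was more than control A, and both MC-LR libraries were below both controls. Summed over the 10 names, the 3′ end came to 101 and 225 RPM in the control and 16.8 and 26.4 RPM with MC-LR, 7.54-fold lower, with single names between 3.53-fold and 15.2-fold.

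The remaining 3′-end names were lower in level. piR-mmu-51078556 stood at 5.81 and 13.9 RPM against 1.01 and 2.59 RPM, piR-mmu-2145 at 3.83 and 7.06 against 0.337 and 1.22 RPM, and piR-mmu-4850905 at 4.71 and 6.25 against 1.18 and 0.915 RPM. In each, both MC-LR libraries lay below both controls. piR-mmu-66708315 stood at 2.94 and 4.23 RPM against 0.168 and 0.305 RPM, and piR-mmu-56081481 at 2.87 and 3.83 against 0.673 and 0.915 RPM. piR-mmu-49992844 stood at 1.64 and 4.64 RPM against 0.337 and 0.915 RPM, and piR-mmu-4407922 at 2.25 and 2.22 against 0.505 and 0.762 RPM. piR-mmu-2146, the least abundant, stood at 1.16 and 1.21 RPM against 0.168 and 0.152 RPM. None of these 8 names overlapped between the groups. Over all 13271 tested names, 92.6% were lower without overlap, so this is near the background. Of the 8 names, 2 rested on 3 reads or fewer in the MC-LR group. The read ratio, pooled reads over pooled totals in MC-LR against control, was 0.0735 for piR-mmu-66708315 (95% counting interval 0.0148 to 0.225). It was 0.136 for piR-mmu-2146 (0.0156 to 0.552).

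The relation of the Sm-site name to the 3′-end names was also read within each library, where the scaling of the table drops out. The lengths differ, 18 nt against 28 to 34 nt, so a library's mix of lengths does not drop out. Names of 17 to 21 nt took 20.3% and 10.3% of the listed reads in control A and B and 15.4% and 18.2% with MC-LR. The part of this mix in the ratio was not tested. The Sm-site name had 0.147 and 0.0368 times the reads of the 3′ end in the control libraries and 9.20 and 4.92 times with MC-LR. The 3′ end led in both controls and the Sm site in both MC-LR libraries, and the geometric mean of the ratio was 91.4-fold higher with MC-LR. A single Sm-site variant was listed here: the 19 nt and the shifted 18 nt versions, piR-mmu-48712357 and piR-mmu-50595701, were listed with the shRNA libraries alone. Of all 13271 tested names, 73.1% were called lower with MC-LR and 2.37% higher (limma adjusted p under 0.05). Among the 494 tested names of 18 to 19 nt, 231 were called lower and 2 higher. The Sm-site name was 1 of these 2, and its call follows from the choice of the locus and supports nothing. The other, chosen after its values were seen, was piR-mmu-49268410 (chr7:73102463-73102481), at 0.0683 and 0.202 RPM in the control and 5.22 and 2.90 RPM with MC-LR. Its control values are 1 read in each library.

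**Figure D2:**
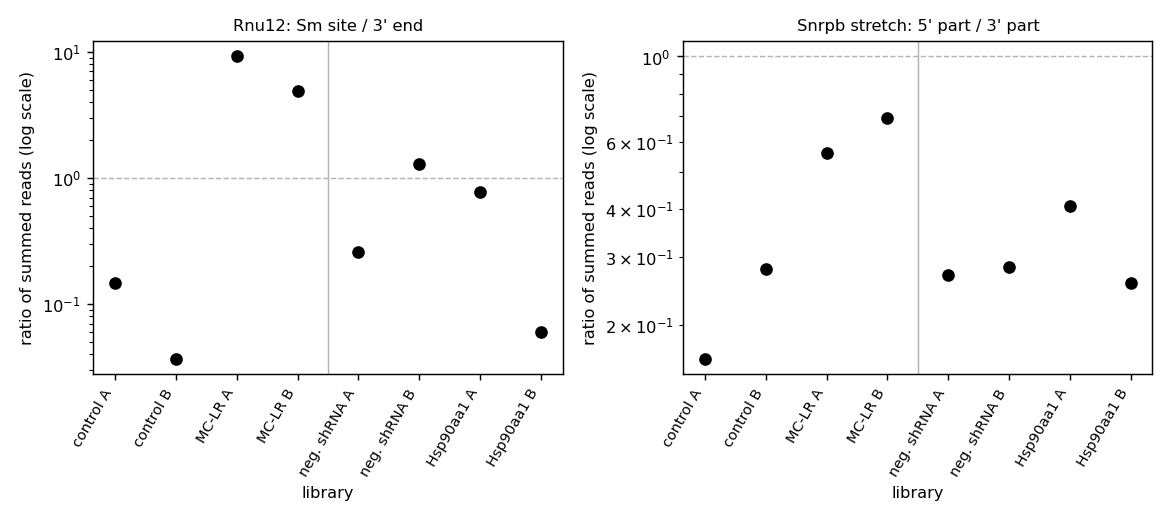
Ratio of summed reads within each of the 8 libraries on a log scale, Rnu12 Sm site over 3′ end (left) and Snrpb 5′ part over 3′ part (right), with a dashed line at equal reads. The Rnu12 ratio is 0.147 and 0.0368 in the control and 9.20 and 4.92 with MC-LR, while the negative-control and Hsp90aa1 shRNA libraries overlap in both ratios. The names summed differ between the control and MC-LR libraries and the shRNA libraries, and the Sm-site names have none in common.

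All 15 Snrpb names were lower with MC-LR. As sums over names, the 3′ part was lower by more than the other parts. Its 9 names, which end with box D, summed to 121 and 119 RPM in the control and 6.90 and 10.8 RPM with MC-LR, 13.5-fold lower. piR-mmu-4734840, the most abundant of them, stood at 29.1 and 26.4 RPM against 1.51 and 2.74 RPM. The next 2, piR-mmu-20833075 and piR-mmu-10638728, stood at 24.5 and 23.0 RPM against 1.35 and 1.83 RPM and at 25.6 and 19.96 RPM against 1.51 and 1.68 RPM. Here the control libraries lay close together, unlike at the Rnu12 3′ end.

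Of the rest of the 3′ part, piR-mmu-1000872 stood at 12.7 and 12.7 RPM in the control and 0.673 and 1.37 RPM with MC-LR. piR-mmu-50755980, the shortest, stood at 13.1 and 9.27 RPM against 1.01 and 1.07 RPM. piR-mmu-16202688 stood at 7.04 and 9.27 RPM against 0.168 and 0.457 RPM, on 1 and 3 reads with MC-LR, and its 95% counting interval of the read ratio, 0.0113 to 0.110, takes in the ratios of most other Snrpb 3′-part names. piR-mmu-66904725 stood at 3.42 and 7.86 RPM against 0.168 and 0.762 RPM. The other long versions, piR-mmu-48733364 and piR-mmu-59412344, stayed under 7 RPM in every library.

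The middle and 5′ fragments were lower as well. piR-mmu-48869588, 21 nt from the middle and the most abundant Snrpb name, stood at 52.3 and 29.2 RPM in the control and 9.09 and 7.47 RPM with MC-LR, 4.93-fold lower. piR-mmu-49247693, which shares its 3′ end, stood at 7.86 and 4.64 RPM against 1.01 and 1.52 RPM. In the 5′ part, piR-mmu-29239003 stood at 12.2 and 23.4 RPM against 3.37 and 6.55 RPM, 3.58-fold lower and the smallest fold among Snrpb names. The other 5′ names, piR-mmu-10760817, piR-mmu-15631376 and piR-mmu-12217140, had 3 reads each in the MC-LR group, as did piR-mmu-59412344. Their read ratios, MC-LR over control, were between 0.0723 and 0.112, with 95% counting intervals that ran from 0.0145 at the lowest to 0.350 at the highest.

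Summed, the 5′ part stood at 19.7 and 33.1 RPM in the control and 3.87 and 7.47 RPM with MC-LR, 4.66-fold lower. Within a library, the 5′ part had 0.163 and 0.279 times the reads of the 3′ part in the control and 0.561 and 0.690 times with MC-LR. The groups did not overlap, and the 3′ part held more reads than the 5′ part in all 4 libraries. Annotated box C/D snoRNA genes (symbols Snord) gave a reference for this. In 45 of them with names ending within 5 nt of both gene ends, the log2 change of the 5′ part minus that of the 3′ part was above 0 in 38, with a median of 1.03 and a range of -0.71 to 2.60. The Snrpb stretch had a difference of 1.54, below 9 and above 36 of these genes, so it lay inside their range.

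**Figure D3:**
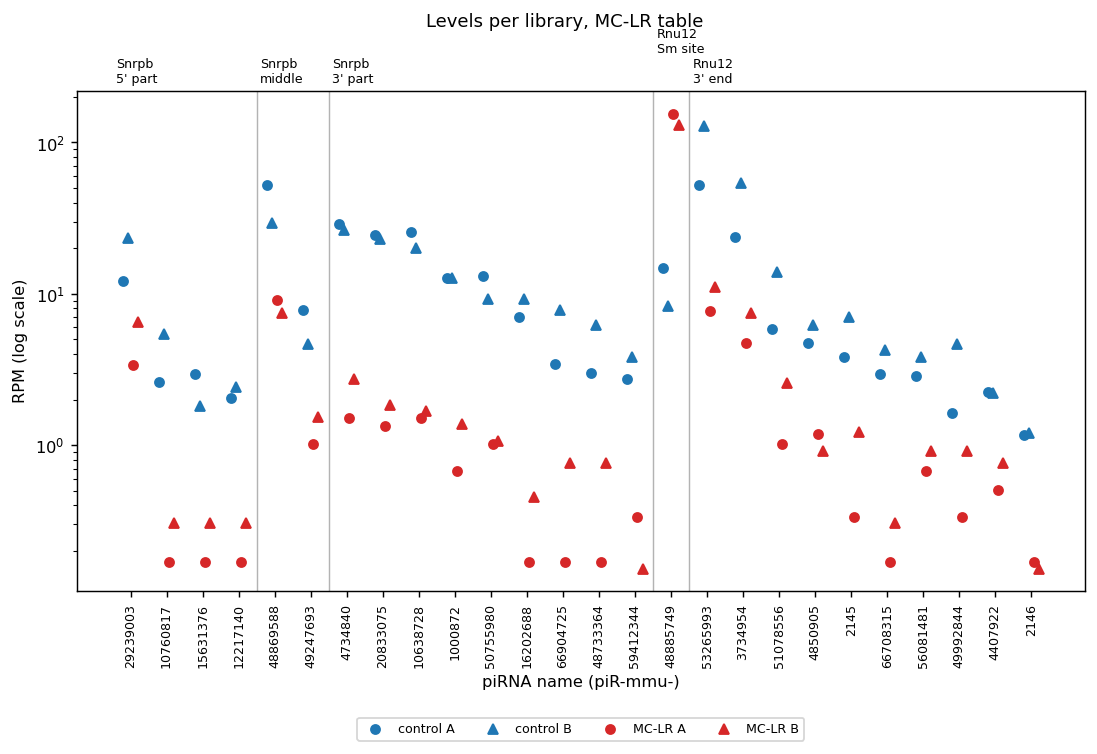
RPM (log scale) of the 26 names of the MC-LR table in control A, control B, MC-LR A and MC-LR B, ordered by fragment and by control level. Both MC-LR libraries lie below both controls for all names except the Sm-site name piR-mmu-48885749, at 155 and 130 RPM against 14.9 and 8.27 RPM.

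This contrast chose the loci, so its calls follow from that choice and support nothing. As a description, 25 of the 26 listed members were past limma's threshold as lower and 1 as higher. Of all 13271 tested names, 73.1% were called lower and 2.37% higher. The groups did not overlap for 25 members that were lower and 1 that was higher, against 92.6% and 2.37% of all tested names. The median log2 change, on log2(RPM + 1), was -2.12 for Snrpb names and -1.66 for Rnu12 names against -1.17 for all tested names. These sizes depend on the pseudocount: with 0.1 RPM in place of 1 the medians were -3.33, -2.30 and -1.57, and with 5 RPM they were -1.17, -0.71 and -0.66. Scaling within the list with TMM factors in edgeR moved the median of all names from -1.64 (library totals) to 0.00. The medians under TMM were -1.86 in Snrpb and -0.75 in Rnu12, and the Sm-site name stood at 5.25.

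The Hsp90aa1 shRNA comparison was not used to choose the loci and was tested. Here 17 members were listed, 11 in Snrpb and 6 in Rnu12, and all 17 were lower in both Hsp90aa1 shRNA libraries than in both negative controls. Of these, 15 reached the minimum level for the test, and all 15 fell (limma, adjusted over 16859 names). This is near the background, since 99.5% of all tested names were called lower and 0.219% higher. Most of the 15 reached the minimum level in the negative control alone, such as piR-mmu-48869588 (mean 9.62 against 0.495 RPM) and piR-mmu-66708315 (1.20 against 0.167 RPM). The others of this kind were piR-mmu-10638728, piR-mmu-20833075, piR-mmu-50755980, piR-mmu-1000872, piR-mmu-16202688, piR-mmu-49247693 and piR-mmu-51078556. For such names the minimum itself favours a fall, so their calls and adjusted p-values are no independent support. The groups did not overlap for 99.8% of tested names that were lower and 0.219% that were higher. The median log2 change was -1.69 in Snrpb and -1.31 in Rnu12, against -1.66 for all names.

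The Sm-site names, listed at Rnu12 and Gm24525, fell in this comparison. piR-mmu-48712357 stood at 9.06 and 20.2 RPM in the negative control and 5.46 and 0.831 RPM with the Hsp90aa1 shRNA. Its log2 change in limma was -2.09 ± 0.64 (SE, adjusted p = 0.00963). piR-mmu-50595701 stood at 5.05 and 14.9 RPM against 2.32 and 0.185 RPM, with a change of -2.30 ± 0.59 (limma adjusted p = 0.00435). In both, negative-control B was above A and Hsp90aa1 B was below A. The same order held for most short names: of 1098 names of 18 to 19 nt, 98.9% were higher in negative-control B than in A and 91.3% lower in Hsp90aa1 B than in A, against 23.1% and 52.1% of names of 25 to 35 nt. The part of this length pattern in the Sm-site result was not tested. Leaving out 1 library leaves a group with a single library, which is taken to vary like the other group, so the p-values of such fits are a rough guide. piR-mmu-48712357 lost its call without Hsp90aa1 B (-1.18, limma adjusted p = 0.0676).

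Of the 4 names at the Rnu12 3′ end, 3 lost their call when some library was left out. piR-mmu-53265993 stood at 36.2 and 16.3 RPM in the negative control and 6.36 and 11.5 RPM with the shRNA, a log2 change of -1.40 ± 0.58 (limma adjusted p = 0.0383). piR-mmu-3734954 stood at 12.5 and 7.03 RPM against 3.07 and 3.88 RPM, a change of -1.22 ± 0.45 (limma adjusted p = 0.0225). Both calls were lost without negative-control A, at adjusted p = 0.398 and 0.2495, and without Hsp90aa1 A, at 0.124 and 0.0764. piR-mmu-51078556 stood at 4.33 and 2.32 RPM against 0.524 and 1.29 RPM (-1.17 ± 0.37, limma adjusted p = 0.0113) and lost its call without Hsp90aa1 A (-0.87, adjusted p = 0.109). piR-mmu-66708315, at 1.13 and 1.27 RPM against 0.150 and 0.185 RPM, fell by 0.92 ± 0.19 (limma adjusted p = 0.00171). Summed, the 3′ end stood at 54.2 and 26.9 RPM against 10.1 and 16.9 RPM, 3.003-fold lower.

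In Snrpb the middle fragment had the lowest ratio. piR-mmu-48869588 stood at 5.87 and 13.4 RPM in the negative control and 0.898 and 0.0923 RPM with the shRNA, a log2 change of -2.79 ± 0.46 (limma adjusted p = 7.41e-04). The last value is a single read, and as for the Sm-site names the higher control was B and the lower knockdown library was B. piR-mmu-49247693 stood at 0.824 and 1.72 RPM against 0.225 and 0.0923 RPM, a change of -0.95 ± 0.24 (limma adjusted p = 0.00375), and lost its call without Hsp90aa1 B (-0.86, adjusted p = 0.0555).

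The 3′ part, which ends with box D, fell in each of its 6 tested names. piR-mmu-10638728 stood at 4.33 and 5.23 RPM against 0.524 and 0.277 RPM (-2.05 ± 0.32, limma adjusted p = 6.37e-04). piR-mmu-20833075 stood at 7.003 and 4.33 RPM against 0.599 and 1.02 RPM (-1.86 ± 0.37, limma adjusted p = 0.00130). piR-mmu-4734840 stood at 6.90 and 4.86 RPM against 1.42 and 1.11 RPM (-1.59 ± 0.37, limma adjusted p = 0.00268). In these names both knockdown libraries were below both controls by a wide margin, in either order of A and B. piR-mmu-10638728 and piR-mmu-20833075 reached the minimum level in the negative control alone, so the minimum itself favours their calls.

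Of the others in the 3′ part, piR-mmu-50755980 stood at 3.30 and 3.44 RPM against 0.299 and 0.369 RPM, piR-mmu-1000872 at 3.19 and 2.02 RPM against 0.674 and 0.462 RPM, and piR-mmu-16202688 at 2.57 and 1.35 RPM against 0.299 and 0.277 RPM. In the 5′ part, piR-mmu-29239003 stood at 6.59 and 5.46 RPM against 1.57 and 0.831 RPM (-1.69 ± 0.38, limma adjusted p = 0.00213). The names below the minimum, piR-mmu-15631376 and piR-mmu-59412344, both stood at 1.03 and 0.747 RPM in the negative control and at 0.0748 and 0.0923 RPM and 0.225 and 0.0923 RPM with the shRNA. piR-mmu-15631376 rested on 1 read in each shRNA library, a read ratio to the negative control of 0.0954 (95% counting interval 0.0108 to 0.393).

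**Figure D4:**
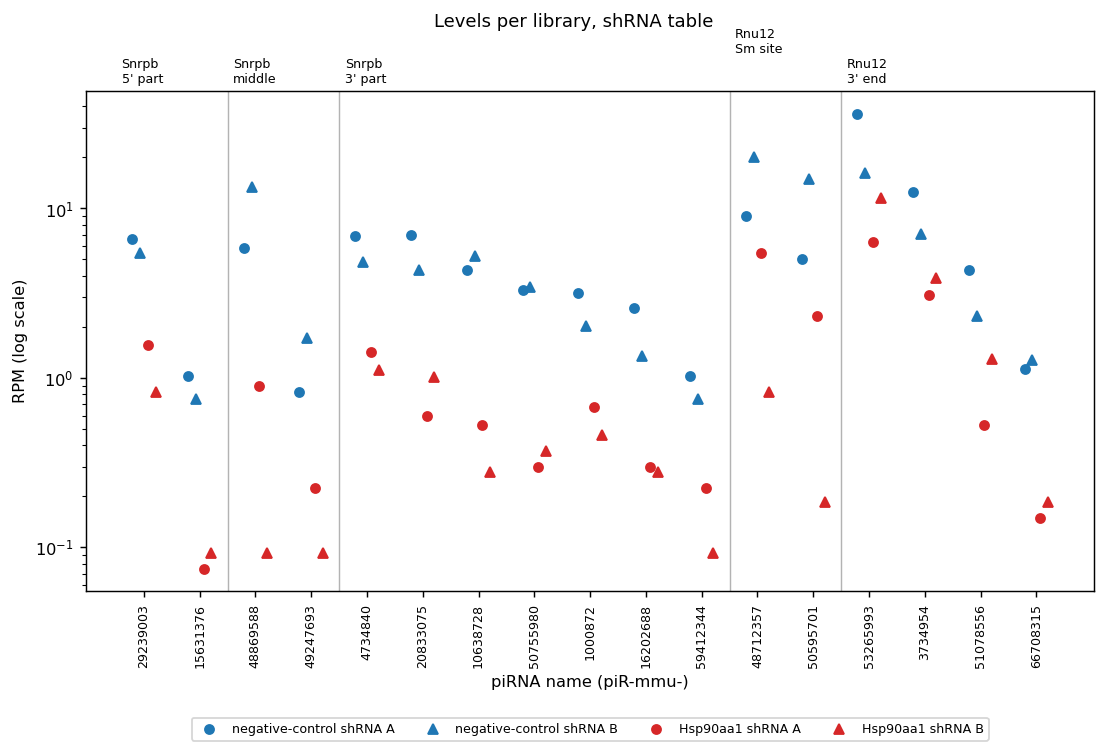
RPM (log scale) of the 17 names of the shRNA table in the 4 libraries (blue: negative-control shRNA, red: Hsp90aa1 shRNA), ordered by fragment and by negative-control level. Both Hsp90aa1 libraries lie below both controls for every name, and in the Sm-site and middle fragments negative-control B is highest and Hsp90aa1 B lowest.

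Within a library, the relation of Sm site to 3′ end did not separate the shRNA groups. Its names differ from those of the MC-LR ratio, so it is no repeat of that ratio. Here piR-mmu-48712357 and piR-mmu-50595701 were set against 4 names of the 3′ end. With MC-LR, piR-mmu-48885749, which is not listed with the shRNA libraries, was set against 10. It was 0.260 and 1.30 in the negative control and 0.770 and 0.0601 with the Hsp90aa1 shRNA. Names of 17 to 21 nt took 14.3% and 28.3% of the listed reads in the negative control and 15.9% and 6.17% with the shRNA. The part of this mix of lengths in the ratio was not tested. The 5′ part of the Snrpb stretch had 0.269 and 0.282 times the reads of its 3′ part in the negative control and 0.407 and 0.256 times with the shRNA, again with overlap. The Rnu12 3′ end over all Snrpb names was 1.27 and 0.622 against 1.48 and 3.59, without overlap, but 2 libraries against 2 cannot reach a two-sided exact permutation p below 0.33. In 39 Snord genes the log2 change of the 5′ part minus that of the 3′ part was above 0, a smaller drop of the 5′ part, in 18 and below 0 in 21, with a median of -0.15. The Snrpb stretch, at 0.29, lay below 14 and above 25 of them.

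**Figure D5:**
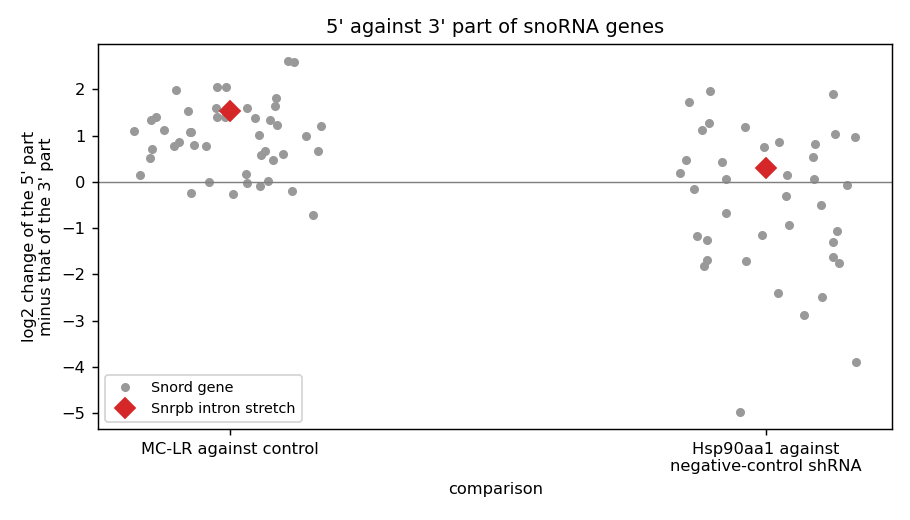
Log2 change of the 5′ part minus that of the 3′ part for annotated Snord genes (grey points, 45 with MC-LR and 39 with the shRNA, spread sideways at random) and for the Snrpb stretch (red). The Snrpb stretch lies at 1.54 and 0.29, inside the range of the Snord genes in both comparisons.

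These shRNA calls depended on the library total as scale. With TMM factors in edgeR none of the 15 members passed, the median log2 change was 0.06 in Snrpb and 0.76 in Rnu12, and that of all names moved from -2.83 to -0.04. piR-mmu-53265993 then stood at 1.39 and piR-mmu-3734954 at 1.41 (edgeR adjusted p = 0.433 and 0.405), and piR-mmu-48869588 at -1.48 (adjusted p = 0.469).

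Other RNAs of the spliceosome were listed too. Of 17 further genes with snRNA symbols, 9 had names, and of these Rnu11 and Rnu5g act in splicing. The others, Rn7sk, Rnu3a, Rnu3b1 to Rnu3b4 and Rnu73b, are neighbours that do not splice. Rnu11 and Rnu5g held 2 and 40 of the 126 names listed with MC-LR and 3 and 14 of the 56 with the shRNA. The counts over the 9 genes therefore mostly describe other RNAs. With MC-LR 100 of 118 tested names were lower, 0 higher and 18 not past the threshold, with a median log2 change of -1.18. Over all tested names 73.1% were lower and the median was -1.17. With the Hsp90aa1 shRNA 48 of 48 fell, with a median of -1.14, where 99.5% of all tested names fell with a median of -1.66. With TMM factors in edgeR the medians over the names of all 9 genes were -0.46 with MC-LR and 0.34, the other direction, with the shRNA. Rnu11 encodes the U11 snRNA, which works with U12 in the minor spliceosome, and its 3 names in the shRNA table all fell. The most abundant, piR-mmu-58010214, stood at 9.68 and 9.49 RPM against 2.02 and 1.85 RPM (-1.85, limma adjusted p = 0.00181). Its 2 names in the MC-LR table were below the level tested, at summed levels of 2.39 and 1.21 RPM against 0.673 and 0.457 RPM. Rnu5g encodes a U5 snRNA, which serves both spliceosomes. Its names summed to 134 and 106 RPM in the control and 28.4 and 26.2 RPM with MC-LR, where 37 of 38 tested were lower. They summed to 34.4 and 34.1 RPM against 9.95 and 7.20 RPM with the shRNA, where 13 of 13 fell. No name of Rnu11 or Rnu5g was called higher, in either table.

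In 52 protein genes of the spliceosome, names were sought on annotated exons of the same strand. Names in introns outside every annotated exon were not looked for. Sf3b3, a subunit of the branch-site complex SF3b, was the single gene with names on exons. All 20 such names in the MC-LR table and 18 in the shRNA table lay on snoRNA genes inside it, Snord111 and Gm22193. Of these, 19 of 20 were lower with MC-LR and 18 of 18 fell with the shRNA, against 73.1% and 99.5% of all tested names. The most abundant, piR-mmu-5824446, stood at 40.4 and 61.9 RPM against 9.26 and 6.55 RPM with MC-LR and at 18.1 and 11.1 RPM against 0.674 and 0.554 RPM with the shRNA (-3.24, limma adjusted p = 5.70e-04). Over all names on annotated snoRNAs outside both loci, 1959 of 2085 were lower and 0 higher with MC-LR, with a median log2 change of -2.02. For annotated snRNAs the counts were 94 of 117 lower and 0 higher, with a median of -1.02. Over all tested names 73.1% were lower, with a median of -1.17. With the shRNA 1652 of 1652 snoRNA names fell, with a median of -1.79, where 99.5% of all tested names fell and 0.219% rose. Of 45 snRNA names 44 fell and 1 rose, with a median of -1.08, against -1.66 over all names. With TMM factors in edgeR the medians were -1.02 for snoRNA and -0.36 for snRNA names with MC-LR, and -0.42 and 0.54 with the shRNA, so the last changed direction.

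The names most like a member were sought over the 8 libraries, each table centred on its own mean, among 10340 names. For piR-mmu-48869588 of Snrpb these were piR-mmu-35122043 (r = 0.999, chr17:39847222-39847242, in a ribosomal RNA repeat), piR-mmu-51341032 (r = 0.998, chr12:78350933-78350954, in Gphn) and piR-mmu-34034747 (r = 0.997, chr1:56782180-56782200). They were listed at 2, 3 and 4 loci in that order, and a single locus of each is given. For piR-mmu-53265993 of Rnu12 they were piR-mmu-5534361 (r = 0.995, chr3:153911660-153911690), piR-mmu-67987265 (r = 0.994, chr9:15313900-15313932) and piR-mmu-2420126 (r = 0.993, chr9:15315562-15315591). The last 3 lie on the snoRNA genes Gm24494, Gm24455 and Gm24357, in Rabggtb and Taf1d. All points share libraries, depth and group differences, so the values describe likeness only.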

How the data were processed

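Per the labels' protocols, frozen sperm gave Trizol RNA, from which an NEB RNA kit made the libraries. The tools named per the submitters' processing notes are HTSeq 0.6.0, Bowtie2 2.2.3 and HISAT2 2.1.0, with the mm10 build. The role of each and the trimming are not stated there. The authors deposited RPM values per locus and piRNA name. All were whole multiples of 1 read (100% within 0.01), which gave back the reads and totals. Each name was used once, and names with a locus inside chr2:130171400-130179500 or chr15:83149650-83149850 were members. The files' starts count from 0 and were printed counting from 1: the 3 names with loci on chromosomes 15 and 5 then have equal sequences at both, and none do otherwise. Members and gene lists were chosen with earlier results of these data known. Each table was tested alone with limma 3.58.1 (trend, robust; R 4.3.3) on log2(RPM + 1), keeping names that averaged 1 RPM or more in either group, Benjamini-Hochberg adjusted over the table at 0.05. Folds in the text are ratios of mean RPM. Alternatives were other pseudocounts, filters and scalings, edgeR 4.0.16 (quasi-likelihood) and DESeq2 1.42.0 on recovered reads, blocks and leaving out libraries. Scripts were tested on simulated data. Genes, transcripts and their sequences came from GENCODE M21 and microRNA hairpins from RefSeq, both GRCm38. Motifs were searched on both strands.

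The names printed with values in each library were the 10 most abundant of each locus and table, those higher in the second group and those at more than 1 locus. The groups share the letters A and B, which the labels do not describe as pairs. The correlation of same-letter deviations was 0.0652 for MC-LR and -0.608 for the shRNA.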

Additional observations from a re-analysis of the deposited data

How the results depend on the processing

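The largest change came from scaling within the list, and its cause was not tested. With MC-LR, limma on TMM-scaled values called 564 of 12548 tested names lower (Snrpb 6 of 15, Rnu12 0 of 10). Of 13271 tested names, edgeR with TMM called 400 lower (Snrpb 5 of 15, Rnu12 0 of 11). DESeq2 called 394 of them lower (Snrpb 4 of 15, Rnu12 1 of 11). The MC-LR contrast chose the loci, so these member calls support nothing. With the shRNA the same 3 fits called 17 of 13450, 21 of 16859 and 133 of 16859 names lower and no member in either locus. In DESeq2 the members that stayed lower got no adjusted p-value, so they could not be called there. The signs of shRNA changes turned in part. In limma after TMM scaling, the log2 change was 0.35 for piR-mmu-1000872, 0.042 for piR-mmu-20833075, 0.34 for piR-mmu-29239003, 1.19 for piR-mmu-3734954, 0.47 for piR-mmu-4734840, 0.20 for piR-mmu-48712357, 0.60 for piR-mmu-51078556 and 1.26 for piR-mmu-53265993. In edgeR with TMM it was 0.65 for piR-mmu-1000872, 0.090 for piR-mmu-16202688, 0.063 for piR-mmu-20833075, 0.50 for piR-mmu-29239003, 1.41 for piR-mmu-3734954, 0.63 for piR-mmu-4734840, 0.49 for piR-mmu-48712357, 1.02 for piR-mmu-51078556 and 1.39 for piR-mmu-53265993. In DESeq2 it was 0.72 for piR-mmu-1000872, 0.16 for piR-mmu-16202688, 0.17 for piR-mmu-20833075, 0.56 for piR-mmu-29239003, 1.503 for piR-mmu-3734954, 0.70 for piR-mmu-4734840, 0.51 for piR-mmu-48712357, 1.16 for piR-mmu-51078556, 1.498 for piR-mmu-53265993 and 0.050 for piR-mmu-66708315.

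A minimum of 5 RPM tests fewer names. With MC-LR it left 5 lower calls among 6 tested Rnu12 names, beside 6904 among all 8349. With the shRNA it gave 8142 lower and 14 higher calls among 8195 names, with 4 lower in Snrpb. Leaving out 1 library, with the lone library of a group taken to vary like the other group, moved the MC-LR lower calls to between 5259 (without MC-LR A) and 10787 (without control B), and those in Rnu12 to between 6 (without MC-LR A) and 10. With the shRNA the count in Rnu12 ran from 3 (without Hsp90aa1 A) to 6. Other pseudocounts and edgeR on library totals changed no member's direction or call with the shRNA. Without a filter, piR-mmu-15631376 and piR-mmu-59412344 were tested as well, and 11 of 11 Snrpb names were called lower against 9 of 9. With letters as a replicate block, 9554 names were lower with MC-LR and 16252 with the shRNA, and piR-mmu-53265993 and piR-mmu-3734954 lost their shRNA calls (limma adjusted p = 0.116 and 0.0739). A crossed replicate block, added after seeing the data, gave 16822 lower calls and lost no member.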
